A study of Mus musculus with 2 samples.

Results

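The 10 imprinted growth regulator genes described here were chosen by name (H19, Meg3, Peg3, Mest, Dlk1, Plagl1, Grb10, Ndn, Peg10 and Zim1), and 8 of the 10 matched a row among the 20211 gene symbols measured. H19 and Meg3, the 2 long noncoding RNAs of the group, matched no symbol and were not analysed here. The RNA came from cultured PCs (perivascular cells) taken from aortas of mice on the C57BL/6 background and was sequenced, in 1 library from wild type (WT) animals and 1 from Kai1 KO animals (Kai1-/-), and both cultures were grown in DMEM with fetal bovine serum (the labels and the study's methods give different shares of serum) and no other agent named. The labels give no age, sex or number of animals for either library, nor which bases of Kai1 are deleted. KAI1 is the tetraspanin encoded by Cd82, and the study compared the genotypes to find genes that KAI1 controls in PCs. The authors deposited 1 RPKM value per gene for each library, that is, reads per kilobase of transcript and per number of mapped reads. Genes whose RPKM averaged 1 or more over the libraries, 10068 in all, are called expressed genes here, and those averaging 0.1 to under 1, 2666 in all, weakly expressed genes. With 1 library per genotype no test was possible, and every difference below includes whatever differs between animals, cultures and library preparations.

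An imprinted gene is read from only 1 of its parental copies, because DNA methylation set in the egg or the sperm marks a control region and is copied at each cell division. Many paternally expressed genes promote growth of the fetus and many maternally expressed genes restrain it. Most of them are strong in fetal tissue and in progenitor cells and are turned down after birth, and several act in one network in which the zinc finger factor PLAGL1 regulates other imprinted genes. H19, Meg3, Grb10 and Zim1 are known as maternally expressed, and the remaining 6 members as paternally expressed. RPKM values do not separate the parental copies, and in bulk RNA fewer cells that express a gene and less RNA per cell cannot be told apart.

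Among the 8 genes with values, Grb10, Ndn and Plagl1 were more than 2-fold lower in the Kai1-/- library and Dlk1 and Peg3 more than 2-fold higher. Peg10 and Mest differed by less than 2-fold, and Zim1 was near the limit of detection. Grb10 and Ndn had been the strongest members in WT PCs, and the summed RPKM of the 8 genes was 135 in WT and 56.5 in Kai1-/- PCs. Grb10 and Ndn together held 93.0% of that sum in WT PCs and 76.2% in Kai1-/- PCs, and Dlk1 held 3.59% and 18.7%. Over all rows, RPKM summed to 885190 in WT and 1238893 in Kai1-/- PCs. Each summed RPKM here and below is thus set against unlike totals.

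The number of reads behind each value was estimated from the steps of low RPKM values, which corresponded to about 29600000 reads in WT and 26700000 in Kai1-/- PCs. The 95% intervals given below rest on these reads and on the longest annotated transcript, and they cover counting error only. The targeted gene Cd82 stood at 12.8 RPKM in WT and 2.62 RPKM in Kai1-/- PCs, or 20.5% of WT (counting interval 16.7 to 25.1%). On the label of the cells, the smooth muscle and mural genes Acta2 (3823 and 2580 RPKM in WT and Kai1-/-), Tagln (633 and 307) and Pdgfrb (44.7 and 31.6) were strong in both libraries, as was the pericyte gene Cspg4, which encodes NG2 (15.4 and 8.27). Other pericyte markers were weak or differed between the libraries, with Rgs5 at 0.0630 and 0.233 RPKM, Abcc9 at 0.0411 and 0.0303, Mcam at 4.90 and 0.264, and Kcnj8 at a listed 0 and 0.791. Reads from 4 of 4 Y-linked genes were present in WT and from 0 of 4 in Kai1-/- PCs, so that sex and genotype cannot be told apart.

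Ndn encodes necdin, a MAGE family protein known to restrain proliferation of neurons, and spans chr7:69493163-69494814 on the plus strand in build NCBI37 (mm9). WT PCs had 64.6 RPKM of Ndn and Kai1-/- PCs 23.5 RPKM. The Kai1-/- level was 36.4% of WT, with a counting interval of 33.7 to 39.2%, from about 2775 and 911 reads. On the scale of log2(RPKM + 0.1) the difference between Kai1-/- and WT was -1.45, and 4.15% of the expressed genes had a lower value.

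Grb10 encodes an adaptor protein that binds the insulin and IGF1 receptors and dampens their signal, and spans chr11:11830511-11938686 on the minus strand. Grb10 reached 61.1 RPKM in WT PCs against 19.5 RPKM in Kai1-/- PCs. The Kai1-/- level was 32.0% of WT (counting interval 30.6 to 33.4%), a log2 difference of -1.64 that was undercut by 3.43% of the expressed genes. In WT PCs the counting intervals of Grb10 and Ndn overlapped, and in Kai1-/- PCs the level of Ndn was 1.20 times that of Grb10 with intervals apart.

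Dlk1, a transmembrane protein with EGF-like repeats that is known as a brake on the conversion of preadipocytes to fat cells, spans chr12:110691033-110701546 on the plus strand. Its levels were ordered the other way, with 4.85 RPKM in WT PCs and 10.6 RPKM in Kai1-/- PCs. The Kai1-/- level was 218% of WT, with a counting interval of 198 to 240%, so that this interval reached across the 2-fold line. If its shortest coding transcript of 879 bases carried the reads, they would be about 97 and 192, with an interval of 171 to 283%. The log2 difference was 1.11, and 6.10% of the expressed genes had a higher value. The level of Ndn was 13.3 times that of Dlk1 in WT PCs and 2.22 times in Kai1-/- PCs.

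Peg10, which derives from a retrotransposon and is needed for the placenta, spans chr6:4697306-4710514 on the plus strand. Peg10 was measured at 2.96 RPKM in WT PCs and at 1.84 RPKM in Kai1-/- PCs, which is 62.1% of WT (counting interval 53.8 to 71.2%). The log2 difference of -0.66 was short of 2-fold, and 14.2% of the expressed genes had a lower value.

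Ndn, Grb10, Dlk1 and Peg10 were the 4 members among the expressed genes, a condition that a gene strong in one library can meet through that library. Of them, 2 were more than 2-fold lower in Kai1-/- PCs, against 7.81% of all expressed genes, and 1 was more than 2-fold higher, against 7.98%. The median log2 difference of the 4 genes was -1.06, and that of all expressed genes was 0.08. Every scaling of the libraries tried lowered the Kai1-/- values, so that only the direction of Dlk1 could have changed, and it did not. However, scaling both libraries to Gapdh shifted the median of all expressed genes to -0.41. With it 3 members were more than 2-fold lower (Peg10 at -1.13) and 0 higher (Dlk1 at 0.61). Of all 10068 expressed genes, 1856 were then lower and 278 higher.

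**Figure D1:**
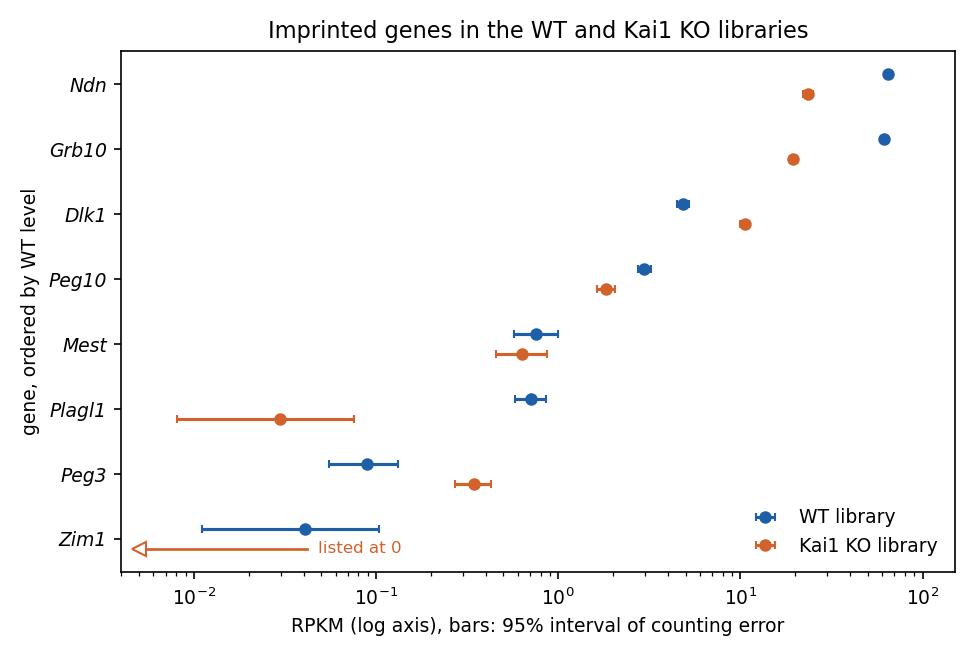
RPKM of the 8 members in the WT library (blue) and the Kai1-/- library (orange), on a log axis, with bars for the 95% counting interval from the estimated reads. Ndn and Grb10 sit far above the other members in WT and lie at 23.5 and 19.5 in Kai1-/-, Dlk1 and Peg3 are further right in Kai1-/- than in WT, and the open arrow marks the Kai1-/- value of Zim1, which is listed at 0.

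The other 4 members were weak in these cells. Plagl1 encodes ZAC1, a zinc finger transcription factor known to promote cell cycle arrest and apoptosis and to act on other imprinted genes, and spans chr10:12810497-12851500 on the plus strand. WT PCs had 0.707 RPKM of Plagl1 and Kai1-/- PCs 0.0296 RPKM. These values stood for about 106 and 4 reads, and the Kai1-/- level was 4.18% of WT with a counting interval of 1.12 to 11.0%. If its shortest coding transcript of 2350 bases carried the reads, they would be 45 and 2, with an interval of 0.579 to 18.9%. The log2 difference of -2.64 understates the gap, since the 0.1 added to each value exceeds the Kai1-/- level.

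Peg3, a large zinc finger protein linked to growth and to p53-dependent apoptosis, spans chr7:6656603-6683132 on the minus strand. Peg3 was measured at 0.0893 RPKM in WT PCs and at 0.343 RPKM in Kai1-/- PCs, from about 22 and 78 reads. The Kai1-/- level was 385% of WT, with a counting interval of 242 to 663%, and the log2 difference was 1.23. Both levels were thus low, but the difference was larger than counting error.

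Mest, a putative hydrolase of the alpha/beta fold family that is known from growing adipose tissue, spans chr6:30673547-30698457 on the plus strand. WT PCs had 0.758 RPKM of Mest and Kai1-/- PCs 0.633 RPKM, which is 83.6% of WT. The counting interval of 54.1 to 129% included equal levels, so that no difference was detectable at this depth. Of its 3937 exonic bases, 904 are shared with Copg2 on the opposite strand, and since the library protocol names no step that marks strand, reads in that stretch may come from either gene. None of the other 7 members with values shared exonic bases with another annotated gene.

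Zim1, a zinc finger gene next to Peg3, spans chr7:6628154-6649161 on the minus strand. WT PCs had 0.0409 RPKM of Zim1, about 4 reads, and Kai1-/- PCs a listed value of 0. With 0 reads the counting interval of its Kai1-/- level reached up to 168% of WT, so that a difference was not detectable.

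Plagl1, Peg3 and Mest belonged to the weakly expressed genes, whose differences spread more widely. Among those 2666 genes, 30.7% lay more than 2-fold below WT in Kai1-/- PCs, as Plagl1 did, and 12.5% more than 2-fold above, as Peg3 did. Of these genes, 4.80% had a lower log2 difference than Plagl1 and 9.45% a higher one than Peg3. In WT PCs Mest and Plagl1 had nearly the same level, with overlapping intervals, whereas in Kai1-/- PCs Mest was 21.4 times higher than Plagl1. Peg3 was below Plagl1 in WT PCs and above it in Kai1-/- PCs, with intervals apart in each library. The order of the levels from Ndn and Grb10 through Dlk1, Peg10 and Mest was the same in each library, with Plagl1 and Peg3 trading places below them and Zim1 last.

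**Figure D2:**
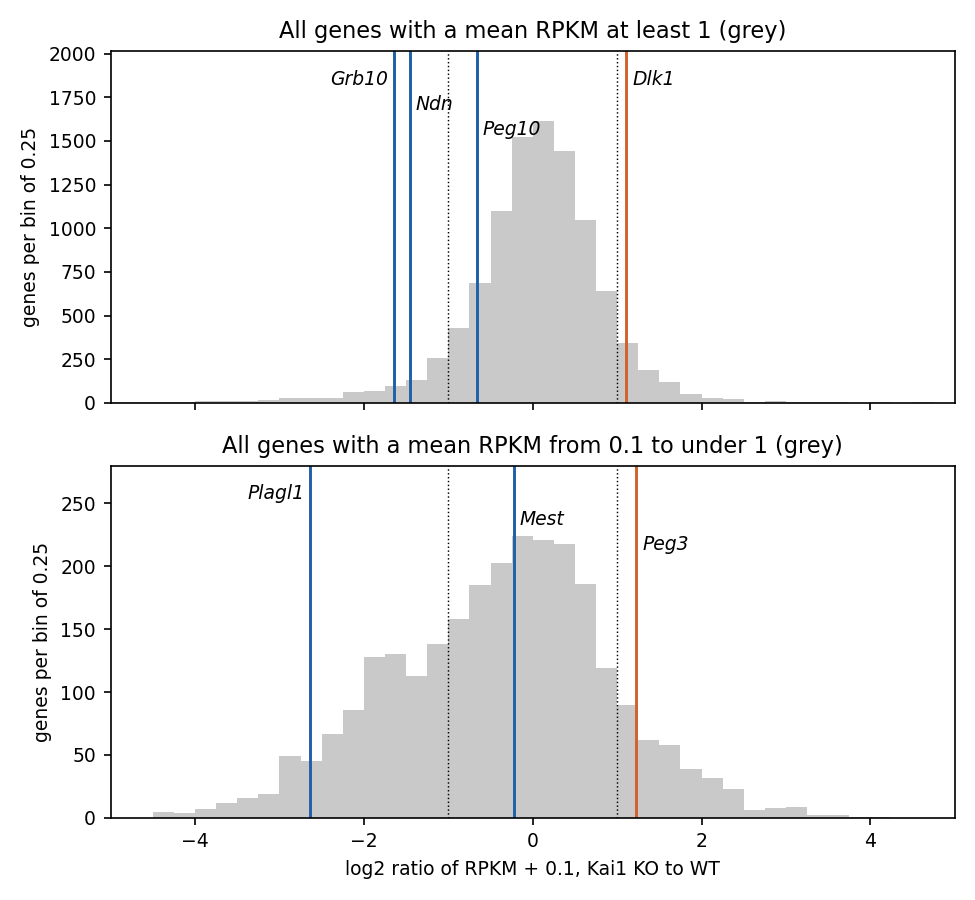
Number of genes (grey bars, vertical axis) by the log2 difference of Kai1-/- to WT after adding 0.1 to each RPKM (horizontal axis), for expressed genes (top) and weakly expressed genes (bottom), with a line for each member and dotted lines at 2-fold. Grb10 (-1.64) and Ndn (-1.45) lie in the left tail of the top panel and Dlk1 (1.11) just beyond the right 2-fold line, while the bottom panel is broader, with Plagl1 at -2.64, Mest at -0.23 and Peg3 at 1.23.

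Because imprints are held as methylation of CpG dinucleotides, the start regions of the 5 members that differed by more than 2-fold are shown. They come from the RefSeq promoter table, which holds windows of 300 bases with 50 of them after the start, and were placed on NCBI37 by exact match, with 1 match each. Only bases ahead of annotated exons are printed, on the gene's own strand, and capitals mark each CpG. No methylation was measured, and whether any of these start regions lies in an imprint control region was not examined. The windows are chr10:12810388-12810496 on the plus strand for Plagl1, chr11:11937424-11937673 on the minus strand for the upstream start of Grb10, chr7:69492913-69493162 on the plus strand for Ndn, chr12:110690783-110691032 on the plus strand for Dlk1 and chr7:6683133-6683380 on the minus strand for Peg3.
Plagl1: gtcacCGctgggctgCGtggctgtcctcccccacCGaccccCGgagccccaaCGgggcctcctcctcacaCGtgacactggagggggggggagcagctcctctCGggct
Grb10: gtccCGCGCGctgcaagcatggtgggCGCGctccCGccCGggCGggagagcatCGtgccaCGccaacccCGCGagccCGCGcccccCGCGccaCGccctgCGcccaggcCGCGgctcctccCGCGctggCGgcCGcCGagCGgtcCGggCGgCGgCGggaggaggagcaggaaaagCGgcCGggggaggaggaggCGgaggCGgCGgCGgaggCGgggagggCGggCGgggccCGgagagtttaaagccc
Ndn: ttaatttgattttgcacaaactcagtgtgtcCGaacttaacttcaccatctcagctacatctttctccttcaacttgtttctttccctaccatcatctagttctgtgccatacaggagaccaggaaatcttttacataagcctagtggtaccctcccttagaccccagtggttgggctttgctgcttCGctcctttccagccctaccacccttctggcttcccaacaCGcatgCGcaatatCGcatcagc
Dlk1: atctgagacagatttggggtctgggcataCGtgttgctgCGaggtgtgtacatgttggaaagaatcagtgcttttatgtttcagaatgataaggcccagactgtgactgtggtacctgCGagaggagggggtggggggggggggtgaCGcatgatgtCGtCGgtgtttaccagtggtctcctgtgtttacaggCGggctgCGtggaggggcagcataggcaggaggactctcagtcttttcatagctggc
Peg3: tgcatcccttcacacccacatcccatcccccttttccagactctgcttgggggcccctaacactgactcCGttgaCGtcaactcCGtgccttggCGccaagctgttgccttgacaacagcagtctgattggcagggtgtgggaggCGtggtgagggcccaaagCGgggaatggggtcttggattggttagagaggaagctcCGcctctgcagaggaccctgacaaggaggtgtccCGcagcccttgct

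These start regions differed widely in CpG content. Over the whole 300 bases, the upstream start of Grb10 held 45 CpGs, more than 98.1% of all 32851 windows in the table, whereas its downstream start held 9, more than 54.2% of them. Plagl1 held 26, more than 83.1% of the windows. Ndn, the third member that was lower in Kai1-/- PCs, held 11, between the 9 of Dlk1 and the 13 of Peg3, and the median window held 7. The table gave 12 windows for 8 of the 10 members, with 2 starts each for Grb10 and Meg3 and 3 for Mest, of which 2 lie 3 bases apart. H19 and Peg10 had none.

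Short motifs were counted on both strands of the same windows. The hexamer TGCCGC, which ZFP57 binds when methylated and which itself contains a CpG, stood in 6 of the 12 windows, against 11.6% of all windows. These were the windows of Plagl1, the upstream start of Grb10, Zim1, 1 start of Meg3 and the 2 overlapping starts of Mest. Those of Ndn, Dlk1 and Peg3 did not hold these letters. The 6 windows with the hexamer held 13 to 45 CpGs, and the share over all windows is not matched for CpG content. In Plagl1 (position -90 from the start) and Grb10 (position 24) the hexamer lies outside the bases printed above. The CCAAT box stood in 2 of the 12 windows (Peg3 and Meg3), against 37.4% of all windows. The YY1 motif CCATNTT (16.1% of all windows), the E-box CAGCTG (16.3%) and the TATA box TATAAA (13.6%) stood in 1 window each, of the downstream start of Grb10, Mest and Meg3. These counts describe letters in the windows and no binding was measured.

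Imprinted genes lie in clusters that share a control region, so each member was set beside the other imprinted or neighbouring genes of its cluster. In the Dlk1-Meg3 cluster on chromosome 12, the paternally expressed neighbour Rtl1, a retrotransposon-derived gene needed for the placenta, stood at 0.987 RPKM in WT and 0.123 RPKM in Kai1-/- PCs. This was 12.4% of WT (counting interval 7.35 to 19.6%), opposite in direction to Dlk1 at 218%. Rtl1 lies on the minus strand, and as the library protocol names no step that marks strand, RNA of the opposite strand could add to its reads. Dio3, which inactivates thyroid hormone, stood at 0.284 and 0.382 RPKM, with an interval of 67.6 to 297% of WT that included equal levels.

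In the cluster of Ndn, the genes nearest to it did not share its direction. Magel2, another MAGE family gene, was listed at 0 in WT PCs and stood at 0.109 RPKM, about 13 reads, in Kai1-/- PCs. This was 4.80 times the level that a floor of 3 reads would give in WT, without counting error. Mkrn3, a ring finger gene whose loss is known to bring puberty forward, stood at 0.0144 RPKM (1 read) in WT and 0.223 RPKM (about 14 reads) in Kai1-/- PCs, with an interval of 236 to 65627% of WT. Peg12 had 0.844 and 1.56 RPKM, or 185% of WT (134 to 259%). Farther off, Snurf, the upstream reading frame of the Snrpn transcript, had 23.6 RPKM in WT and 11.0 in Kai1-/- PCs, a log2 difference of -1.10. The ubiquitin ligase Ube3a had 2.65 and 1.97 RPKM, or 74.1% of WT (62.9 to 86.9%).

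Peg10 and Sgce, a sarcoglycan gene, are read in opposite directions from starts next to each other on chromosome 6, and their percentages were close. Sgce stood at 22.6 RPKM in WT and 14.3 RPKM in Kai1-/- PCs, or 63.4% of WT (57.9 to 69.3%), and Peg10 stood at 62.1%. Asb4, farther along the same cluster, had 0.197 and 0.0121 RPKM from about 18 reads and 1 read, or 6.16% of WT with an interval of 0.148 to 39.0%. Ppp1r9a had about 9 and 2 reads, and Calcr was listed at 0 in both libraries.

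Grb10 likewise had a neighbour with a similar percentage. Cobl, an actin nucleator gene, stood at 5.31 RPKM in WT and 1.84 RPKM in Kai1-/- PCs, or 34.7% of WT (30.2 to 39.9%), beside the 32.0% of Grb10. Ddc, on its other side, had about 4 and 7 reads, which is too few for a comparison. Beside Plagl1, Phactr2 stood at 1.33 and 0.897 RPKM, or 67.6% of WT (48.7 to 93.1%), so that its difference was smaller than that of Plagl1 at 4.18%. Beside Mest, Copg2 had 3.30 and 3.19 RPKM, or 96.5% of WT (82.7 to 112%), and Klf14 was listed at 0 in both libraries. Usp29, next to Peg3, had 1 read in WT and 2 in Kai1-/- PCs.

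For H19 the cluster could be read only through its partner Igf2, the fetal growth factor, which stood at 0.0387 RPKM in WT and 0.0975 RPKM in Kai1-/- PCs. These values stood for about 5 and 12 reads, and the interval of 87.3 to 964% of WT included equal levels. In the next cluster on chromosome 7, Cdkn1c, an inhibitor of cyclin-dependent kinases, stood at 0.238 RPKM (about 12 reads) in WT and was listed at 0 in Kai1-/- PCs. The counting interval of its Kai1-/- level reached up to 39.9% of WT. Phlda2, which restrains growth of the placenta, had about 3 reads in WT and 0 in Kai1-/- PCs. Between these genes lies Slc22a18, a transporter gene, with 8.35 RPKM in WT and 1.84 RPKM in Kai1-/- PCs, or 22.0% of WT (16.6 to 28.6%). Tssc4 and Osbpl5 of the same cluster were well expressed and closer to equal, at 82.4% of WT (69.7 and 57.5 RPKM) and 75.4% of WT (19.2 and 14.4 RPKM). Ascl2 had about 14 and 11 reads, and Kcnq1 was listed at 0 in both libraries.

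**Figure D3:**
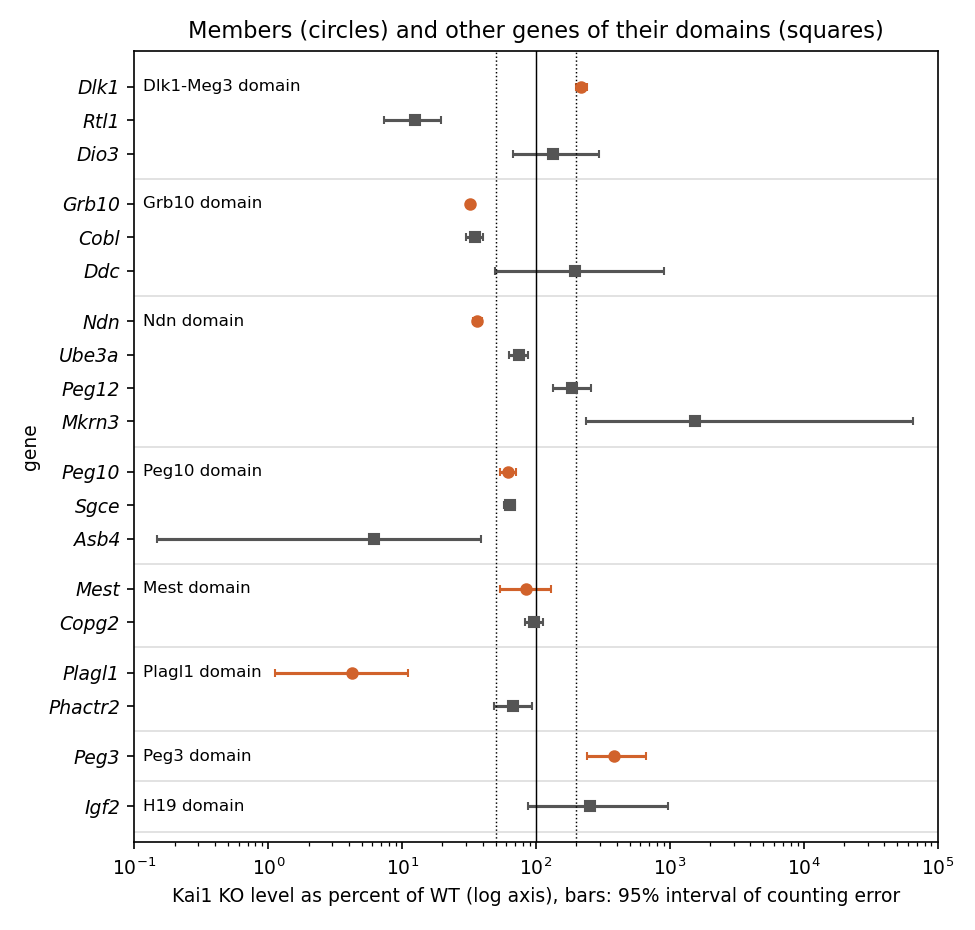
Kai1-/- level as percent of WT (log axis) for members (orange circles) and other genes of their clusters (grey squares), with bars for the 95% counting interval, a solid line at 100 and dotted lines at 50 and 200. Genes at 0 in a library are not drawn, nor are Snurf, Ppp1r9a and Usp29. Peg10 and Sgce lie at 62.1 and 63.4%, Grb10 and Cobl at 32.0 and 34.7%, and Dlk1 (218%) and Rtl1 (12.4%) lie on opposite sides of 100%, as do Ndn (36.4%) and Peg12 (185%).

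A list of 26 genes, labelled imprint upkeep, was set beside the members. It mixes factors that copy and protect imprints with others, such as Tet1, Tet2 and Tet3, which oxidize methylated DNA, and the repressor Rest. Of the 26 genes, 18 were expressed. Of these, 3 were more than 2-fold higher in Kai1-/- PCs, against 7.98% of all expressed genes, and 0 more than 2-fold lower, against 7.81%, with a median log2 difference of 0.58. The 3 were Hells, a remodelling ATPase that aids DNA methylation, with 3.44 RPKM in WT and 11.1 in Kai1-/- PCs; Uhrf1, which brings DNMT1 to newly copied DNA, with 10.9 and 24.1; and the maintenance methyltransferase Dnmt1, with 17.0 and 35.8. Above 0 were 16 of the 18 genes, beside 5546 of all 10068 expressed genes, but under scaling to Gapdh 12 were above 0 and 6 below, with a median of 0.10. The weakly expressed Dnmt3l, a partner of the de novo methyltransferases, had 0.690 RPKM in WT and a listed 0 in Kai1-/- PCs. The counting interval of its Kai1-/- level reached up to 13.1% of WT.

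Cell cycle genes differed in the same direction as these factors. The counts below stand beside 7.81% of all expressed genes more than 2-fold lower and 7.98% higher. With scaling to Gapdh, 1856 of all 10068 were lower and 278 higher. Of 15 cell cycle genes, 14 were more than 2-fold higher in Kai1-/- PCs, 7 of them with scaling to Gapdh, and their summed RPKM was 277 in WT and 770 in Kai1-/- PCs. Mki67 stood at 5.43 and 19.1 RPKM. Of 7 expressed mural markers, 4 were more than 2-fold lower (6 with scaling to Gapdh). All 12 summed to 4645 RPKM in WT and 2978 RPKM in Kai1-/- PCs, of which Acta2 alone held 3823 and 2580. Of 9 expressed fibroblast markers, 4 lay more than 2-fold below WT and 1 above it, and all 10 summed to 3188 and 1897 RPKM. Of 10 endothelial markers, 2 were listed at 0 in WT and 9 in Kai1-/- PCs, with sums of 2.52 and 1.01 RPKM. Of 3 expressed macrophage markers, 2 lay more than 2-fold below WT (Csf1r, 11.7 and 2.66 RPKM, and Lyz2, 3.44 and 1.09) and 1 above it (Cd14, 1.98 and 10.3). All 10 macrophage markers summed to 19.1 and 14.7 RPKM, with 1 at 0 in WT and 3 in Kai1-/- PCs. The part of the share of dividing cells or of other cell types in the values of Grb10, Ndn, Plagl1, Dlk1 and Peg3 was not tested.

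Genes that work with 2 of the members were looked up as fixed lists. For Grb10, the insulin and IGF list held 12 expressed genes. Of these, 2 lay more than 2-fold below WT, against 7.81% of all expressed genes, and 2 above it, against 7.98%. Its receptors were nearer to equal than Grb10 itself: Igf1r had 5.43 RPKM in WT and 4.0 in Kai1-/- PCs, or 73.6% of WT (65.0 to 83.4%), and Insr had 0.800 and 0.796. The ligand Igf1 stood at 3.95 RPKM in WT and 35.4 RPKM in Kai1-/- PCs. The binding proteins differed among themselves: Igfbp3 (17.7 and 1.35 RPKM) and Igfbp6 (203 and 60.8 RPKM) were lower in Kai1-/- PCs, and Igfbp2 (42.4 and 126 RPKM) was higher, at 297% of WT (279 to 316%). Igfbp7 was at 56.4% of WT and Igfbp4 at 102%. The weakly expressed Igfbp5 had 1.59 RPKM in WT and 0.0132 in Kai1-/- PCs, from about 273 and 2 reads. This was 0.833% of WT (0.0979 to 2.96%). For Dlk1, the Notch list held 5 expressed genes. Of these, 1 lay more than 2-fold above WT, against 7.98% of all expressed genes, and 0 below it, against 7.81%. The 1 gene above was Dlk2, the paralog of Dlk1, with 2.23 RPKM in WT and 8.33 in Kai1-/- PCs, or 373% of WT (298 to 467%). With scaling to Gapdh, 5 genes of the insulin and IGF list lay below and 2 above, and 2 of the Notch list below and 1 above. Of all 10068 expressed genes, 1856 lay below and 278 above under that scaling.

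As Dlk1 is a marker of preadipocytes and is also strong in growing muscle, genes of these tissues were read beside it. Of 10 fat cell and preadipocyte genes, Adipoq, Cd36 and Cidec were listed at 0 in both libraries, and Pparg was close to equal with 2.49 RPKM in WT and 2.22 in Kai1-/- PCs. Fabp4 (10.6 and 4.53 RPKM), Cebpb (70.4% of WT) and the lipase gene Lpl (1.04 and 0.0586, or 5.63% of WT with an interval of 1.99 to 12.4%) were lower in Kai1-/- PCs. Cebpa, a regulator of fat cell formation, was higher, with 0.484 and 1.38 RPKM, or 285% of WT (191 to 434%). The muscle regulators Myod1, Myf5 and Pax7 were listed at 0 in both libraries, and Myog had 1 read in WT and 0 in Kai1-/- PCs. The skeletal actin gene Acta1, however, stood at 15.3 RPKM in WT and 0.888 RPKM in Kai1-/- PCs, or 5.81% of WT (3.94 to 8.51%), and made up most of the list's sum of 16.9 and 2.84 RPKM. Tnnt3 stood at 1.45 and 1.89 RPKM, with an interval of 81.3 to 204% of WT.

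**Figure D4:**
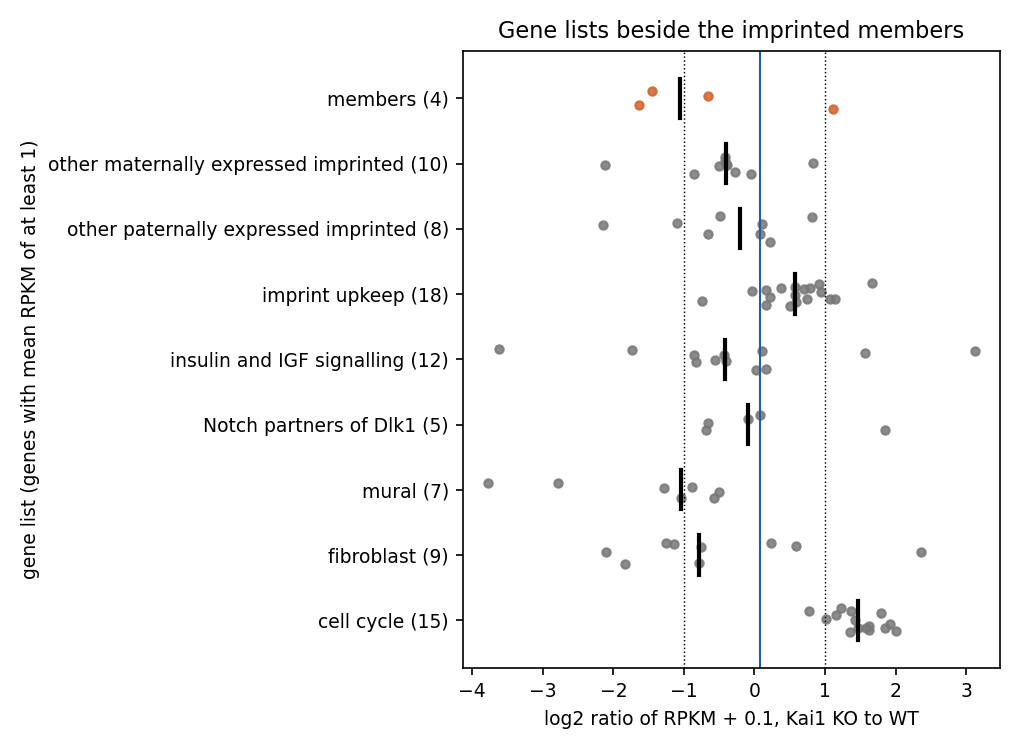
Log2 difference of Kai1-/- to WT after adding 0.1 to each RPKM (horizontal axis), for the expressed genes of each list (points, spread vertically only to keep them apart), with the list's median as a black bar, the median of all expressed genes as a blue line and dotted lines at 2-fold. The 4 members spread from -1.64 to 1.11. Cell cycle genes (median 1.46) and the mixed list labelled imprint upkeep (median 0.58) lie mostly to the right of the blue line.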

How the data were processed

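RNA of aortic PCs was sequenced in 1 WT and 1 Kai1-/- library. The authors aligned reads to mm9 (NCBI37) with TopHat2 2.0.9 and Bowtie and deposited RPKM values of RefSeq genes, and the processing notes also name Cufflinks. Of 20462 rows, 38 named no gene and were dropped, and a symbol on several rows was given their mean. Log2 differences were taken after adding 0.1 to each RPKM, and a gene counted as expressed where its RPKM averaged 1 or more. Reads were estimated by fitting low values of genes with a single GENCODE M1 transcript of over 800 bases, less a fragment of 200 bases, to whole reads; 75.1% (WT) and 72.6% (Kai1-/-) lay within 0.15 of a whole number. Intervals are exact Clopper-Pearson or Poisson, at 95%, and a floor of 3 reads stands for 0. The members and gene lists were chosen with earlier results of these data known. All members were named, with the genes of their clusters and at most 3 genes per list by size of change, beside fixed markers; genes named to describe a list further were chosen after their values were seen. Scripts were tested on simulated data. Alternatives were other pseudocounts, scalings and filters. Python 3.11.15, numpy 2.4.6, pandas 2.3.3, scipy 1.17.1 and matplotlib 3.10.9 were used.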

Additional observations from a re-analysis of the deposited data

How the results depend on the processing

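Of 42 recomputed log2 differences of the 7 members with a ratio, 42 kept their sign. Of the 42, 33 moved by less than the distance from the middle of the counting interval to its end on the log2 scale. Another pseudocount cannot change a sign, and summing repeated symbols cannot change a member with 1 row. Only the scalings could therefore have changed a sign. As each scaling lowered the Kai1-/- values, only the signs of Dlk1 and Peg3 were open to change. With a pseudocount of 1 RPKM, Peg3 was at 0.30 and Plagl1 at -0.73, both under 2-fold, because the added value exceeds their level. Grb10 was at -1.72 with the median of the expressed genes set to 0. Equal upper quartiles put Grb10 at -1.77 and Ndn at -1.58. With the libraries scaled to Gapdh, Grb10 was at -2.14, Ndn at -1.95, Peg10 at -1.13 and Dlk1 at 0.61. The number of members more than 2-fold higher was 1 as reported, 0 with a pseudocount of 1 RPKM, with equal upper quartiles and with scaling to Gapdh, as Dlk1 lies close to the line, and 2 with no filter on mean RPKM. Over all genes that passed the filter, 786 were lower and 803 higher as reported, 1856 and 278 with scaling to Gapdh, 1878 and 1205 with no filter, and 350 and 511 where the RPKM had to average 5 or more. Summing repeated symbols could change no member, as each stood on 1 row. No paired analysis was possible because there is only 1 library of each genotype, and for that reason none could be left out. Depth limits Zim1, with about 4 reads, and the Kai1-/- value of Plagl1.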

Other observations

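Imprinted genes other than the members were also counted as a whole. Of 45 other imprinted genes listed, cluster genes included, 39 matched a row and 18 were expressed (RPKM averaging 1 or more). Of these 18, 3 were more than 2-fold lower in Kai1-/- PCs, against 7.81% of all expressed genes, and 0 more than 2-fold higher, against 7.98%. With scaling to Gapdh, 5 of the 18 were lower, beside 1856 of all 10068 expressed genes. The 3 were Slc22a18, Snurf and the paternally expressed Impact, a regulator of translation, which had 12.6 and 2.76 RPKM, or 21.9% of WT (counting interval 19 to 25.2%). Igf2r, which removes IGF2 from the cell surface, had 5.91 and 3.21 RPKM, or 54.3% of WT (49.6 to 59.3%). Commd1 was the 1 expressed gene listed as maternal with a log2 difference above 0. It had 31.2 and 55.2 RPKM, or 177% of WT (170 to 184%).

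Among weakly expressed genes, Nnat, a small membrane proteolipid gene known from the brain, had 1.57 RPKM in WT and 0.202 in Kai1-/- PCs, or 12.9% of WT (5.15 to 29.4%). The strongest imprinted gene listed was Gnas, the stimulatory G protein alpha subunit, with 328 RPKM in WT and 234 in Kai1-/- PCs. Over the 10 expressed genes of the maternal list outside the members, 9 had a log2 difference below 0, with a median of -0.41. Of all 10068 expressed genes, 4522 were below 0, with a median of 0.08. Which parental copy the listed genes use in aortic PCs was not measured. Of the 8 expressed genes of the paternal list, 4 were below 0 and 4 above, with a median of -0.20. These 8 include Gnas (-0.49), although its G protein alpha subunit transcript is not known as paternally expressed. The median lies between Gnas and Mcts2 (0.08), so that its sign depends on keeping Gnas in the list. With scaling to Gapdh, 7 of those 8 were below 0 and 1 above, and the median of all expressed genes was then -0.41.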
